A study of Homo sapiens and Mus musculus with 24 samples.

Results

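ACTB, B2M, HPRT1 (Hprt in mouse), TBP, PPIA, YWHAZ and SDHA are 7 genes that are commonly used beside GAPDH as internal references in RT-qPCR. They were followed through UPA-seq, the sequencing of RNA that stays in the aqueous phase of a phenol-chloroform extraction after UV irradiation of the cells. The genes were chosen by symbol and Ensembl identifier, with mouse orthologs taken by the same symbol regardless of case, and all 7 were found among the 58381 human and among the 53715 mouse genes of the count files. Libraries were made with and without prior UV irradiation from HepG2 (a human hepatocellular carcinoma line), HEK293 (a human embryonic kidney line), Neuro2a (a mouse neuroblastoma line) and HippCulture, a primary culture of hippocampal neurons from E16.5 C57/BL6NCr mouse embryos. There were 3 replicates per group and 24 samples in all. The labels name no transgene, the study's culture methods call the HEK293 cells HEK293T (a derivative that carries the SV40 large T antigen), AraC was added to HippCulture against glial growth, and all lysates, irradiated or not, were heated in TRIzol before chloroform was added. HepG2, HEK293 and Neuro2a are each a single established line, and HippCulture can still hold glia.

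A reference gene in RT-qPCR serves as the denominator of every other measurement, so a change in its own recovery passes on to all genes measured against it. UV light forms covalent bonds between RNA and bound proteins, and crosslinked RNA moves with denatured proteins to the interphase, away from the aqueous phase. From its RT-qPCR and northern blots of MALAT1 the study also proposes that these bonds hinder reverse transcription. Recovery and reverse transcription cannot be told apart in the counts used here. In the study's RT-qPCR of HepG2 cells treated with hexanediol, lncRNAs were given relative to GAPDH. In its RT-qPCR over UV doses, also in HepG2, GAPDH was itself measured and was much less affected than MALAT1. The 7 genes stand for unrelated processes: cytoskeleton (ACTB, β-actin), antigen presentation (B2M, the light chain of MHC class I), purine salvage (HPRT1, hypoxanthine phosphoribosyltransferase), transcription (TBP, the TATA-binding protein), protein folding (PPIA, cyclophilin A), phosphoserine-dependent signalling (YWHAZ, 14-3-3ζ) and respiration (SDHA, the flavoprotein subunit of succinate dehydrogenase).

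The primers that the study lists for mouse Gapdh are shown first, since the comparisons with GAPDH in mouse cells below concern the same gene. The RT-qPCR named above used human cells. They are given 5′ to 3′ without marked positions.
Gapdh forward: cctcgtcccgtagacaaaatg
Gapdh reverse: tctccactttgccactgcaa
Both matched the 1272-base Gapdh transcript of GENCODE M21 exactly, the forward primer at bases 75 to 95, across the start of the coding sequence, and the reverse primer, as its reverse complement, at bases 155 to 174. The amplicon spans 100 bases. On the minus strand of chromosome 6 in mm10 the sites lie at 125165291 to 125165311 in exon 2 and at 125163378 to 125163397 in exon 3.

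Samples held 36573473 to 53511592 counts in HepG2 and 6910907 to 11188033 in the other cell types. Because few RNAs filled more of the irradiated libraries, values below are CPM (counts relative to the library total) scaled by edgeR's TMM factors (which centre most genes near 0 change) unless library size alone is named. Among nonirradiated HepG2 samples, replicate 1 stood apart from the others (chi-square per degree of freedom of 151 and 112 over genes, against 3.45 between replicates 2 and 3). In HEK293 replicate 1 stood apart in both groups (24.0 and 29.7 against 6.58 without irradiation, 49.0 and 57.2 against 5.15 with it); values without these libraries stand beside the results they move most. Hepatocyte markers summed to 19742 to 26952 CPM (scaled by library size) in nonirradiated HepG2. In nonirradiated HippCulture the 5 neuron markers summed to 3027 to 3391 CPM, and all 4 astrocyte markers were present with 572 to 672 CPM. In nonirradiated Neuro2a the 5 neuron markers had means of 574 (Tubb3), 84.6 (Map2), 40.5 (Snap25), 6.74 (Syn1) and 0.35 CPM (Rbfox3). Human TUBB3 also had 103 CPM in nonirradiated HepG2. In bulk RNA, fewer cells of a type and less RNA per cell cannot be told apart.

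In nonirradiated cells the 7 genes spanned a wide range of abundance. RPKM (counts divided by the length of all annotated exons and by the library total) was highest for Actb in Neuro2a, 1058 ± 77 (SD, n = 3), and in HippCulture, 947 ± 60 (SD, n = 3), and for ACTB in HepG2, 252 ± 69 (SD, n = 3). In HEK293 the order began with PPIA at 152 ± 19 and ACTB at 136 ± 79 (SD, n = 3 each), whose ranges overlapped. PPIA or Ppia was the first or the second gene in every cell type on this scale. The lowest gene was TBP or Tbp in HEK293 (4.71 ± 0.95), Neuro2a (4.12 ± 0.09) and HippCulture (2.03 ± 0.36) and HPRT1 in HepG2 (6.80 ± 3.65, SD, n = 3 each), where the ranges of TBP and HPRT1 overlapped. The ratio of the highest to the lowest mean RPKM came to 37.0 (HepG2), 32.3 (HEK293), 257 (Neuro2a) and 468 (HippCulture). B2m differed most in rank between the mouse cells, with 153 ± 13 RPKM in Neuro2a and 12.1 ± 2.2 in HippCulture (SD, n = 3 each). Neighbours in the order whose ranges overlapped were also Sdha and Hprt in both mouse cell types. Dividing by the length of 1 representative transcript instead gave ratios of 61.8, 51.3, 50.6 and 109 and changed part of the order, with PPIA below B2M in HepG2 (193 against 201). Mouse Tbp, whose exons cover 13399 bases because of 1 long annotated isoform against 1891 bases of the representative one, then had 29.2 RPKM in Neuro2a and 14.4 in HippCulture, where B2m became the lowest.

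Upon UV irradiation the reference genes separated, by CPM scaled with TMM, into those that increased, those with no detected change and those that decreased. These words are relative to the other genes of a library, since neither TMM nor library size gives the absolute recovery of an RNA. The study reports that less total RNA was recovered from irradiated HepG2 cells. PPIA and SDHA increased in all 4 cell types and YWHAZ decreased in all 4. B2M increased in 3 and ACTB decreased in 2, while HPRT1 and TBP each increased in 1. In HepG2, 4 of the 7 passed the test, beside 78.8% of 20117 genes tested (3 up beside 38.1%, 1 down beside 40.7%). In HEK293, 5 passed, beside 50.6% of 20472 genes (4 up beside 24.2%, 1 down beside 26.4%). In Neuro2a, 6 passed, beside 61.9% of 17425 genes (4 up beside 28.9%, 2 down beside 33.0%). In HippCulture, 4 passed, beside 52.0% of 18488 genes (2 up beside 26.1%, 2 down beside 25.9%). With 7 genes these counts do not set the reference genes apart from all genes. Irradiated and nonirradiated samples did not overlap for 4, 5, 7 and 5 of the 7 in HepG2, HEK293, Neuro2a and HippCulture, beside 82.5%, 59.2%, 67.4% and 60.1% of all genes. The median log2 fold change of the 7 was 0.20, 0.46, 0.34 and 0.08 in HepG2, HEK293, Neuro2a and HippCulture, against −0.08, −0.08, −0.14 and −0.04 over all genes tested. The distance from the lowest to the highest of the 7 came to 2.08 (HepG2), 1.96 (HEK293), 3.70 (Neuro2a) and 1.64 (HippCulture) on the log2 scale.

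**Figure D1:**
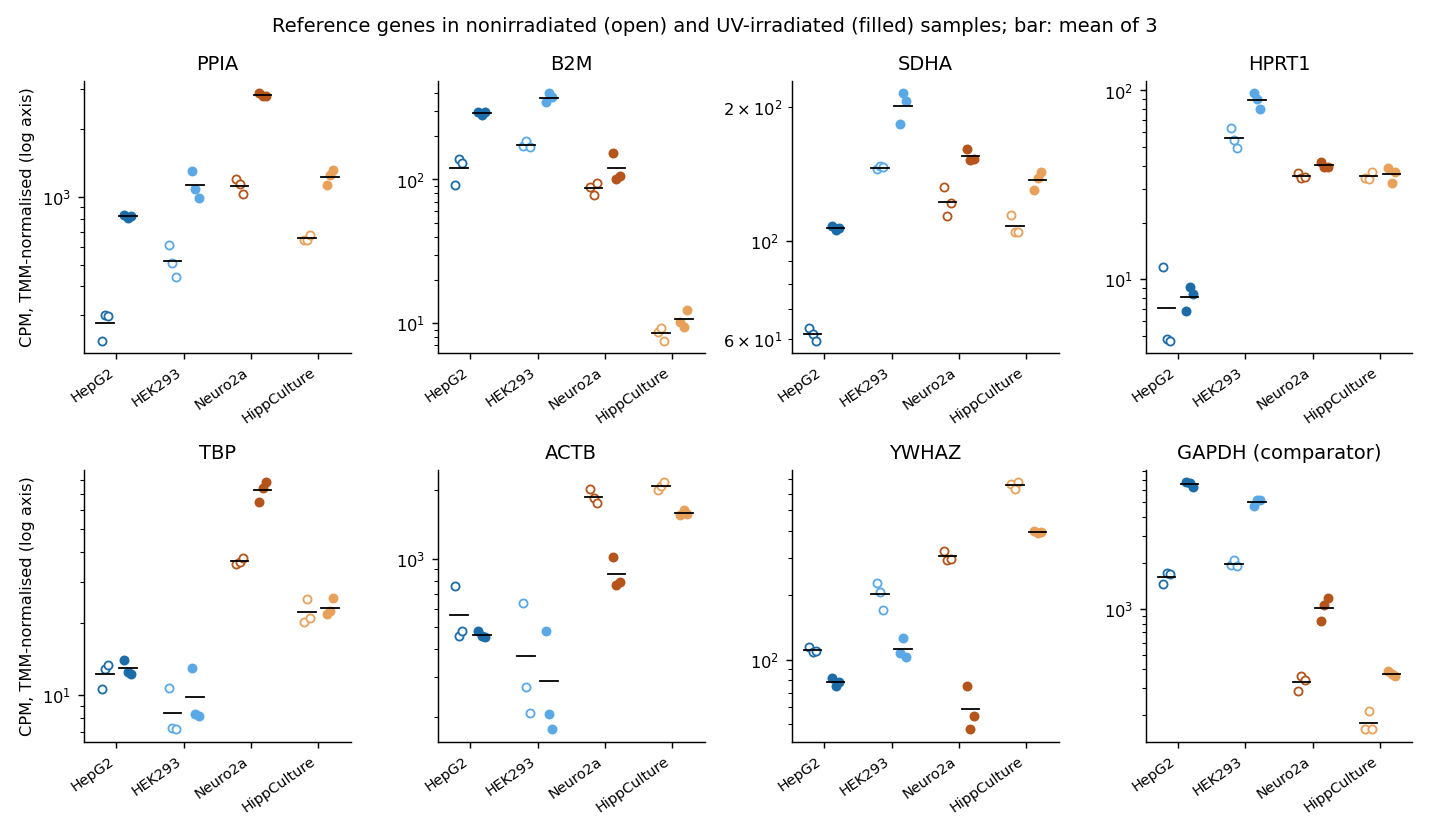
TMM-normalised CPM (log axis) of each reference gene and of GAPDH in every sample, by cell type, with mouse orthologs under the human symbols; open points are nonirradiated, filled points UV-irradiated samples and bars the mean of 3. PPIA and SDHA lie higher and YWHAZ lower in all irradiated samples of every cell type, while the groups of HPRT1 and TBP overlap in 2 and 3 cell types.

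PPIA, the cyclophilin that accelerates proline isomerisation in folding proteins, showed the largest increase of the 7 in every cell type. In HEK293 its rank over B2M was not resolved, with log2 fold changes of 1.11 (SE 0.17) and 1.09 (SE 0.13). PPIA (chromosome 7, 44796680 to 44824564, plus strand, hg38) had 229.7, 298 and 296 CPM in nonirradiated and 827, 806 and 821 CPM in UV-irradiated HepG2. No sample overlapped, and the log2 fold change was 1.58 (SE 0.11, adjusted p = 2.0e-06, edgeR's quasi-likelihood test). In HEK293 it had 610.0, 508 and 439.5 CPM without and 1299, 1085 and 984 CPM with irradiation, a log2 fold change of 1.11 (SE 0.17, adjusted p = 6.5e-04). Ppia (chromosome 11, 6415443 to 6419817, plus strand, mm10) went from 1193, 1141 and 1024 to 2873, 2793 and 2790.1 CPM in Neuro2a, a change of 1.33 (SE 0.10, adjusted p = 6.7e-08). In HippCulture it went from 645, 645 and 673 to 1124, 1243 and 1319 CPM, a change of 0.91 (SE 0.09, adjusted p = 4.1e-08). The groups were apart in all 4 cell types, and 88.4% to 91.1% of the genes tested in a cell type had a lower log2 fold change than this gene. Processed pseudogenes named after PPIA, 89 in the files, held 2.95% to 6.46% of the counts of PPIA in nonirradiated and 0.28% to 0.42% in irradiated HepG2, and their part in the change was not tested. In mouse such copies are not named after the parent and were not summed.

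B2M, which stabilises MHC class I molecules at the cell surface, increased in both human lines and in Neuro2a, with smaller values in the mouse cells. B2M (chromosome 15, 44711477 to 44718877, plus strand) had 91.1, 139 and 129.99 CPM in nonirradiated and 292, 282 and 294 CPM in irradiated HepG2, a log2 fold change of 1.27 (SE 0.14, adjusted p = 4.2e-05). Its 171, 185 and 168 CPM in HEK293 became 345, 397 and 372 CPM, a change of 1.09 (SE 0.13, adjusted p = 1.7e-04). The lowest irradiated sample stood above the highest nonirradiated one by a wide margin in both lines. In Neuro2a, B2m (chromosome 2, 122147686 to 122153083, plus strand) had 88.6, 78.5 and 94.4 CPM and, with irradiation, 153, 100.005 and 106 CPM, a change of 0.46 (SE 0.14, adjusted p = 0.013). Irradiated replicate 1 carried most of this difference, since without it the change was 0.22 (adjusted p = 0.070). The call was also lost without nonirradiated replicate 2 (0.39, adjusted p = 0.058). These fits ignored the replicate number, and with it as a block over all 6 samples the change was 0.45 (SE 0.07, adjusted p = 3.75e-09, edgeR's test). In HippCulture B2m was scarce, at 8.71, 9.30 and 7.56 against 10.2, 9.47 and 12.4 CPM, and its log2 fold change of 0.34 (SE 0.16) did not pass the test (adjusted p = 0.072), although the groups did not overlap. Without nonirradiated replicate 2 it passed (0.44, adjusted p = 0.026).

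SDHA, which oxidises succinate in the citric acid cycle and in complex II, showed moderate increases with little spread between replicates. SDHA (chromosome 5, 218241 to 256700, plus strand) had 63.7, 61.6 and 59.6 CPM in nonirradiated and 108, 106 and 107 CPM in irradiated HepG2, a log2 fold change of 0.79 (SE 0.06, adjusted p = 4.1e-06). In HEK293 the values were 145, 147 and 146 without and 183, 214 and 206 CPM with irradiation, a change of 0.46 (SE 0.13, adjusted p = 0.013). Sdha (chromosome 13, 74322254 to 74350280, minus strand) changed by 0.34 in both mouse cell types. It had 132, 114 and 122 against 160.4, 151 and 153 CPM in Neuro2a (SE 0.09, adjusted p = 0.0058) and 114, 104 and 105 against 130.1, 138 and 142 CPM in HippCulture (SE 0.08, adjusted p = 0.0012). All irradiated samples were above all nonirradiated ones in each cell type. The human gene has near-identical copies: the 4 genes SDHAP1 to SDHAP4 held 39.5% to 47.2% of the counts of SDHA in nonirradiated and 11.9% to 14.5% in irradiated HepG2, and 17.5% to 24.5% and 12.1% to 13.5% in HEK293. Part of the reads of SDHA and of these copies cannot be told apart, so the human values are uncertain, and the part of these copies in the change was not tested.

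HPRT1, which returns hypoxanthine and guanine to the nucleotide pool, changed in HEK293. HPRT1 (chromosome X, 134460153 to 134520513, plus strand) went there from 63.6, 54.6 and 49.4 to 96.5, 89.7 and 79.7 CPM, a log2 fold change of 0.67 (SE 0.14, adjusted p = 0.0045). In HepG2 it had the lowest mean CPM of the 7 and depended on 1 library, with 11.6 CPM in nonirradiated replicate 1 against 4.86 and 4.74 CPM in replicates 2 and 3, and 6.83, 9.14 and 8.32 CPM upon irradiation. The groups overlapped and the change was 0.20 (SE 0.33, adjusted p = 0.58). Without nonirradiated replicate 1 it was 0.67 and passed the test (adjusted p = 1.7e-07). Hprt (mouse chromosome X, 52988137 to 53021659, plus strand) had 36.4, 34.5 and 34.8 against 42.0, 39.2 and 39.2 CPM in Neuro2a, which did not overlap but differed by 0.19 only (SE 0.10, adjusted p = 0.10). In HippCulture the values of 34.5, 33.8 and 37.2 CPM overlapped with 38.9, 32.4 and 36.9 CPM, a change of 0.05 (SE 0.10, adjusted p = 0.72).

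TBP, the subunit of TFIID that binds the TATA box, had the lowest RPKM over all exons in 3 cell types and changed in Neuro2a. TBP (chromosome 6, 170554302 to 170572870, plus strand) had 10.6, 12.8 and 13.4 CPM without and 14.1, 12.5 and 12.3 CPM with irradiation in HepG2, a log2 fold change of 0.08 (SE 0.11, adjusted p = 0.53). In HEK293 it had 10.7, 7.28 and 7.19 against 13.0, 8.35 and 8.18 CPM, a change of 0.22 (SE 0.25, adjusted p = 0.49). The groups overlapped in both lines. Tbp (mouse chromosome 17, 15499888 to 15528379, plus strand) rose in Neuro2a from 35.7, 36.4 and 37.5 to 64.7, 74.1 and 78.3 CPM, a change of 0.99 (SE 0.10, adjusted p = 1.1e-06). In HippCulture it had 20.3, 25.2 and 21.2 against 21.9, 22.6 and 25.6 CPM, which overlapped, with a change of 0.08 (SE 0.12, adjusted p = 0.62). The mouse gene shares 2582 of its 13399 exon bases with Pdcd2 on the other strand, and reads there were counted for both genes. Pdcd2 itself rose in Neuro2a from a mean of 19.7 to 61.6 CPM (log2 fold change 1.64, SE 0.13, adjusted p = 1.2e-07) and in HippCulture from 7.83 to 13.8 CPM (0.82, SE 0.16, adjusted p = 1.9e-04). Its part in the change of Tbp was not tested. The other 6 genes shared no exon base with another gene in either species, nor did human TBP. Of the comparators, human GAPDH shares 422 bases (14.2% of its exon bases) with a lncRNA gene on the other strand. Mouse Gapdh shares 68 bases (1.65%) with Iffo1 on the other strand. The part of these shared reads in the ratios to GAPDH was not tested.

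ACTB, the cytoplasmic actin of the cortical cytoskeleton, had negative log2 fold changes in all 4 cell types, of which those in the mouse cells passed the test. Actb (mouse chromosome 5, 142903115 to 142906754, minus strand) fell in Neuro2a from 2019, 1849.7 and 1753 to 1012, 763 and 789 CPM, a change of −1.13 (SE 0.12, adjusted p = 1.9e-06). In HippCulture it fell from 2000.5, 2097 and 2173 to 1563, 1639 and 1573 CPM, a change of −0.39 (SE 0.09, adjusted p = 7.8e-04). Every irradiated mouse sample was below every nonirradiated one. ACTB (human chromosome 7, 5527147 to 5563784, minus strand) varied more between replicates of the human lines than between conditions. Its 757, 457 and 482 CPM in nonirradiated HepG2 overlapped with 479, 455 and 449 CPM in irradiated cells, with a change of −0.29 (SE 0.18, adjusted p = 0.15). Without nonirradiated replicate 1 the change was −0.10 and passed the test (adjusted p = 0.0080). In HEK293 replicate 1 was high in both groups, with 635, 271 and 208 against 479.8, 207 and 177 CPM, and the change of −0.37 (SE 0.46, adjusted p = 0.53) was not called. It became 0.27 without nonirradiated replicate 1 (adjusted p = 0.57) and −0.94 without irradiated replicate 1 (adjusted p = 0.069). Each irradiated HEK293 sample was below the nonirradiated sample of the same number, and with the replicate number as a block the change was −0.34 (SE 0.07, adjusted p = 5.7e-05), which raised the genes called there to 6 of 7 beside 68.0% of all genes.

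YWHAZ, a 14-3-3 protein that binds phosphorylated clients, decreased most of the 7 in every cell type. YWHAZ (human chromosome 8, 100916525 to 100953388, minus strand) had 115, 109 and 109.5 CPM in nonirradiated and 81.6, 74.9 and 78.5 CPM in irradiated HepG2, a log2 fold change of −0.50 (SE 0.07, adjusted p = 1.2e-04). In HEK293 it had 228, 207 and 171 against 107, 127 and 103 CPM, a change of −0.85 (SE 0.15, adjusted p = 0.0018). Ywhaz (mouse chromosome 15, 36770770 to 36796929, minus strand) fell in Neuro2a from 321, 293 and 297 to 75.2, 47.0 and 54.1 CPM, to 0.194 of its level, with a log2 fold change of −2.37 (SE 0.14, adjusted p = 9.9e-09). HippCulture showed 665, 627 and 679 against 401, 390.1 and 396 CPM, a change of −0.73 (SE 0.08, adjusted p = 2.6e-07). The groups did not overlap in any of the cell types. In Neuro2a, 8.1% of the genes tested had a lower log2 fold change, and in HepG2 38.6%.

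**Figure D2:**
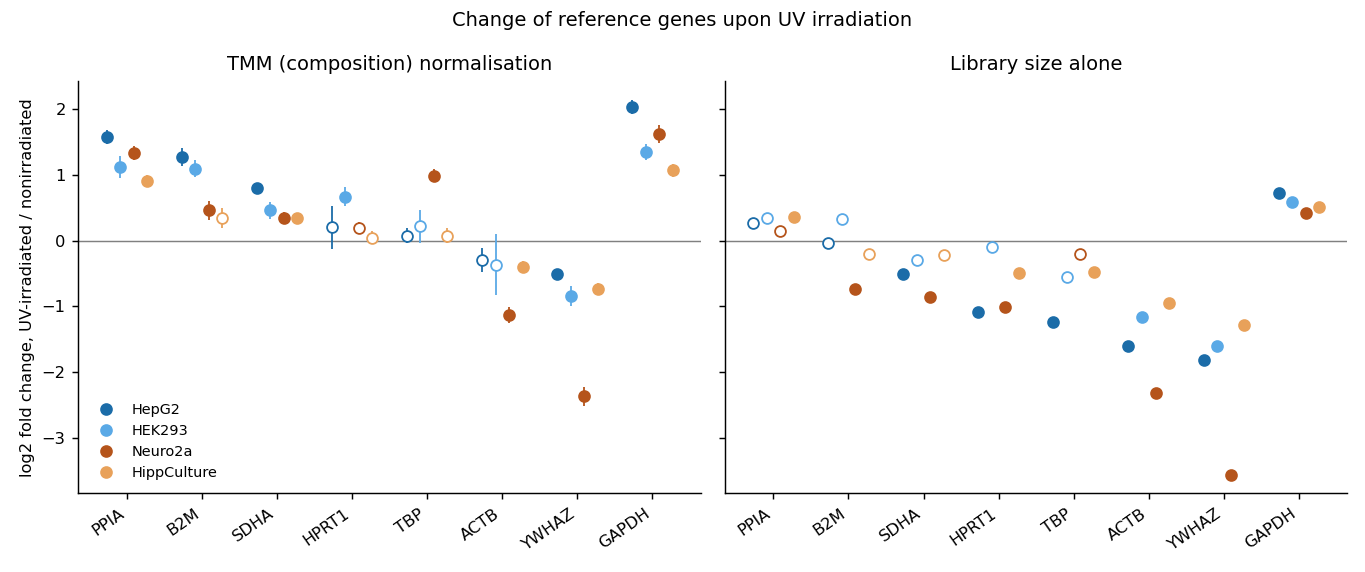
Log2 fold change (UV-irradiated over nonirradiated) of the reference genes and GAPDH in 4 cell types, under TMM normalisation with SE (left) and under library size alone (right); filled points passed the test at an adjusted p of 0.05. PPIA stays above and YWHAZ and ACTB below 0 in both panels, while SDHA, HPRT1 and TBP lie above 0 on the left and below 0 on the right.

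The sign of several of these changes depended on the normalisation. With library size alone, the median of all genes shifted to −1.38, −0.84, −1.32 and −0.59 in the same order of cell types (HepG2, HEK293, Neuro2a, HippCulture), and the reference genes moved down with it. On this scale 1 of the 7 was called increased, Ppia in HippCulture (0.36, adjusted p = 0.048), beside 7.14% of genes increased there. The other changes of PPIA or Ppia were 0.27, 0.34 and 0.14 in HepG2, HEK293 and Neuro2a (adjusted p = 0.057, 0.059 and 0.20). None of the 7 was called increased in HepG2, HEK293 or Neuro2a, beside 8.62%, 7.61% and 6.07% of genes. Decreased were 5 of 7 in HepG2 (beside 78.7% of genes), 2 in HEK293 (54.6%), 5 in Neuro2a (73.8%) and 4 in HippCulture (49.5%). SDHA turned to −0.51 in HepG2 and −0.85 in Neuro2a, where it was then called decreased (adjusted p = 7.5e-05 and 2.5e-06), and HPRT1 in HepG2 to −1.09 (adjusted p = 0.0097). The decrease of YWHAZ deepened to −1.81, −1.60, −3.55 and −1.28, and that of ACTB to −1.59, −1.15, −2.32 and −0.95, all called. GAPDH was called increased on both scales in all 4 cell types, with log2 fold changes of 2.03, 1.35, 1.62 and 1.07 under TMM and 0.72, 0.59, 0.42 and 0.51 under library size.

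The effect of irradiation was compared between the cell types of each species by an interaction term. Between HepG2 and HEK293 none of the 7 genes differed, beside 7.95% of 16759 genes. The differences (HEK293 minus HepG2) ran from −0.36 for PPIA (SE 0.21, adjusted p = 0.32) to 0.56 for HPRT1 (SE 0.38, adjusted p = 0.39), which leaves differences of this size undecided, and at 0.55 the SE of ACTB was the widest. Between Neuro2a and HippCulture 4 of 7 differed, beside 24.5% of 14973 genes. Ywhaz fell less in HippCulture, by 1.64 on the log2 scale (SE 0.17, adjusted p = 4.1e-06), and so did Actb, by 0.74 (SE 0.16, adjusted p = 0.0021). The rise of Tbp was smaller in HippCulture, with a difference of −0.91 (SE 0.15, adjusted p = 2.5e-04), as was that of Ppia, with −0.42 (SE 0.14, adjusted p = 0.033). Those of Tbp and Ppia depended on the scale, since library size alone gave −0.27 and 0.22 (adjusted p = 0.28 and 0.35). B2m, Hprt and Sdha differed by −0.11 (SE 0.23), −0.14 (SE 0.13) and 0.01 (SE 0.12), with adjusted p = 0.77, 0.48 and 0.97. With library size alone, Hprt and Sdha were called, with differences of 0.505 and 0.64 (adjusted p = 0.035 and 0.0056), and B2m was not (0.53, adjusted p = 0.090).

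Ratios between 2 genes within a sample need no normalisation and are what a reference gene provides. Of the 21 pairs of reference genes, the log2 ratio of the counts (0.5 added to each) did not overlap between irradiated and nonirradiated samples in 15 (HepG2), 12 (HEK293), 18 (Neuro2a) and 16 pairs (HippCulture). The shares over all pairs of genes tested came to 80.7%, 55.7%, 62.5% and 54.6%. An exact two-sided permutation test of 3 against 3 samples cannot give less than p = 0.1, and after adjustment over the 21 pairs the smallest values were 0.14, 0.175, 0.117 and 0.131. Samples of the same number were taken as pairs in HEK293 and Neuro2a. By the differences within these, 20 of the 21 pairs of genes moved in 1 direction in all 3 replicates of HEK293, beside 75.7% of all pairs of genes. In Neuro2a 19 did, beside 74.1%.

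PPIA against YWHAZ changed most in each cell type, in HEK293 closely followed by B2M against YWHAZ (1.93, SE 0.13). The log2 ratio of PPIA to YWHAZ in HepG2 was 1.00, 1.45 and 1.43 without and 3.34, 3.43 and 3.39 with irradiation. In Neuro2a this ratio was 1.89, 1.96 and 1.78 against 5.25, 5.89 and 5.68, a rise of 3.73 (SE 0.19) or 13.3-fold. The rise was 2.09 (SE 0.15) in HepG2, 1.96 (SE 0.15) in HEK293 and 1.64 (SE 0.08) in HippCulture. Irradiated and nonirradiated samples were far apart in each cell type (exact permutation p = 0.1 for each, the smallest possible). Other pairs changed less in some cell types. B2m against Sdha shifted by 0.09 (SE 0.18) in Neuro2a and −0.02 (SE 0.13) in HippCulture, but by 0.50 (SE 0.21) and 0.63 (SE 0.04) in HepG2 and HEK293, where the groups did not overlap. Without HepG2 nonirradiated replicate 1 the shift of B2M against SDHA in HepG2 was 0.29 (SE 0.03), still without overlap. HPRT1 against TBP shifted by −0.04 (SE 0.16) in HippCulture with overlapping groups, and by −0.79 (SE 0.12) in Neuro2a without overlap. In HepG2 it shifted by 0.24 (SE 0.56) with overlapping groups, but by 0.76 (SE 0.19) without overlap when nonirradiated replicate 1 was left out. In HEK293 it shifted by 0.45 (SE 0.19) with overlapping groups, while the differences between samples of the same number were all positive, from 0.32 to 0.52. B2M against PPIA shifted by −0.03 (SE 0.21) in HEK293 and by −0.90 (SE 0.22) in Neuro2a. No pair overlapped in all 4 cell types.

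**Figure D3:**
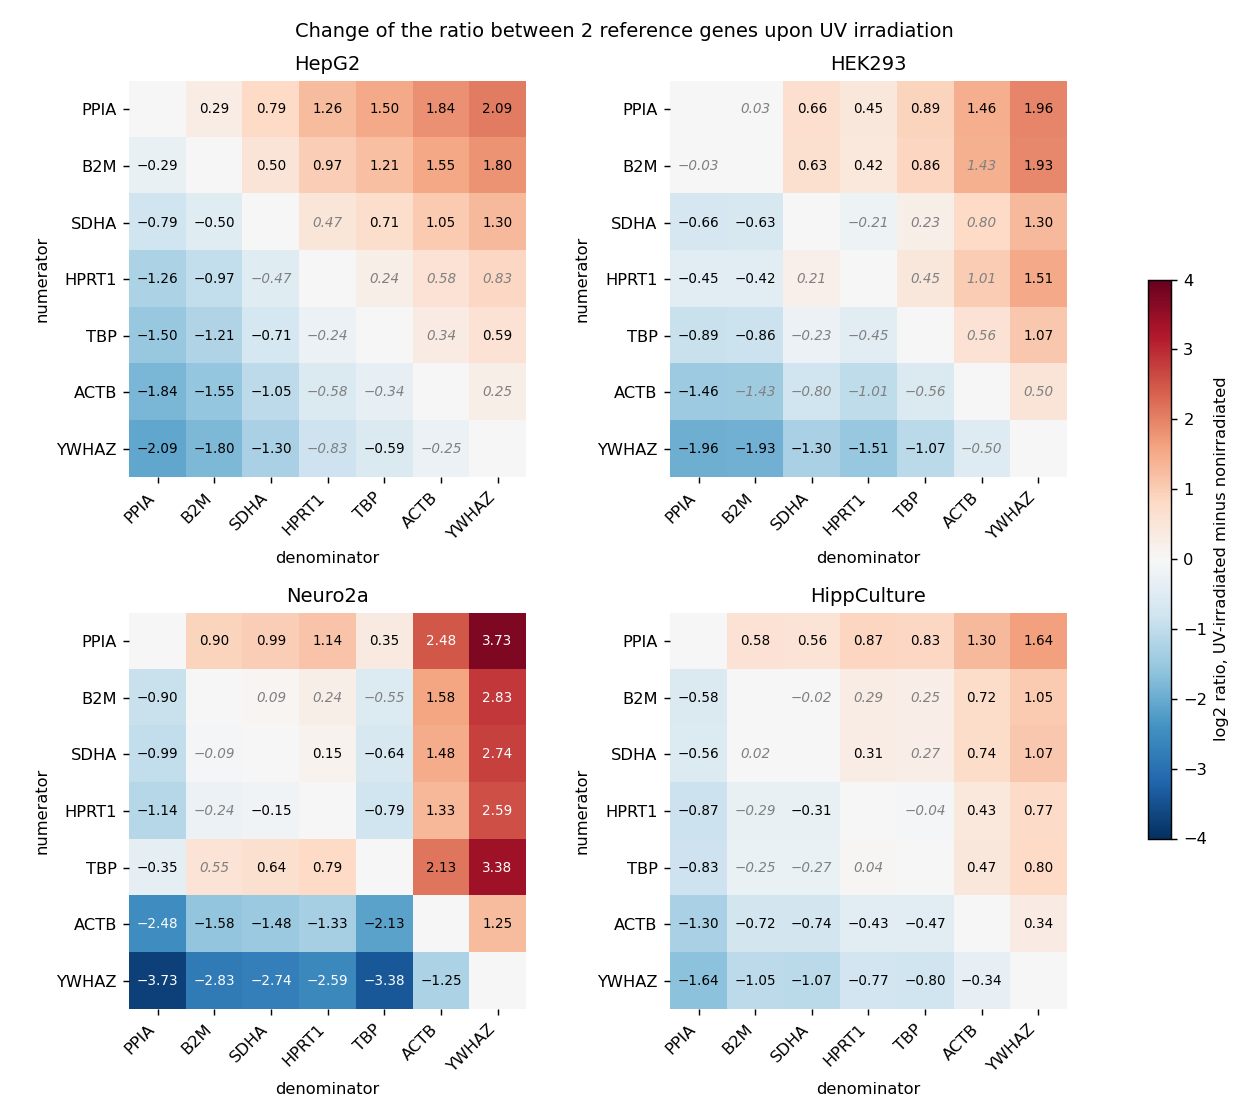
Change of the log2 ratio between 2 reference genes (row over column) upon UV irradiation, 1 panel per cell type; grey italic numbers mark pairs whose irradiated and nonirradiated samples overlap. Ratios over YWHAZ increase in every panel, up to 3.73 for PPIA in Neuro2a, and B2M over SDHA is near 0 in both mouse panels.

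Relative to GAPDH all 7 genes were lower in irradiated samples of all 4 cell types. PPIA followed GAPDH most closely, with changes of the log2 ratio of −0.45 (SE 0.05) in HepG2, −0.23 (SE 0.21) in HEK293, −0.27 (SE 0.21) in Neuro2a and −0.17 (SE 0.17) in HippCulture, and its groups overlapped in the last 3. Between samples of the same number, the changes ran from −0.29 to −0.19 in HEK293 and from −0.33 to −0.24 in Neuro2a, all of 1 sign. YWHAZ was the farthest, at −2.54 (SE 0.12), −2.19 (SE 0.14), −4.01 (SE 0.36) and −1.81 (SE 0.17). The other 5 genes lay between, from −0.26 for B2M in HEK293 to −2.75 for Actb in Neuro2a, and none of them overlapped between groups in any cell type.

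The choice of reference set the size of the change measured for a target. MALAT1 and NEAT1, nuclear lncRNAs, served as targets here. Relative to GAPDH the log2 ratio of MALAT1 fell by 4.46 (SE 0.56) in HepG2 and by 4.51 (SE 0.14) in Neuro2a. Relative to PPIA it fell by 4.02 (SE 0.60) and by 4.23 (SE 0.27) in these lines. With YWHAZ as denominator the same counts gave a fall of 1.93 (SE 0.45) in HepG2. Without HepG2 nonirradiated replicate 1 these changes were −3.91 over GAPDH, −3.42 over PPIA and −1.48 over YWHAZ. In Neuro2a the change over YWHAZ was −0.50 (SE 0.35) with overlapping groups (exact permutation p = 0.3), although the differences between samples of the same number were all negative, from −0.61 to −0.35. In HEK293 the values were −3.36 (SE 0.44) over GAPDH and −1.17 (SE 0.54) over YWHAZ, and in HippCulture −2.30 (SE 0.20) and −0.49 (SE 0.20), where the groups overlapped for YWHAZ in both (exact permutation p = 0.2 each). Within the numbered pairs of HEK293 the change over YWHAZ ran from −1.47 to −0.85, and without replicate 1 of both groups it was −1.32 (SE 0.20) with no overlap. NEAT1 was lower over every reference gene in HepG2, HEK293 and Neuro2a, from −6.09 (GAPDH in HepG2) to −1.14 (YWHAZ in Neuro2a). In HippCulture Neat1 had few counts, 103, 275 and 75 in nonirradiated and 43, 17 and 30 in irradiated samples. There its ratio to YWHAZ changed by −0.82 (SE 0.66) and that to ACTB by −1.16, both with overlapping groups. Without nonirradiated replicate 2 these changes were −0.21 and −0.59. All denominators gave negative changes for both lncRNAs.

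**Figure D4:**
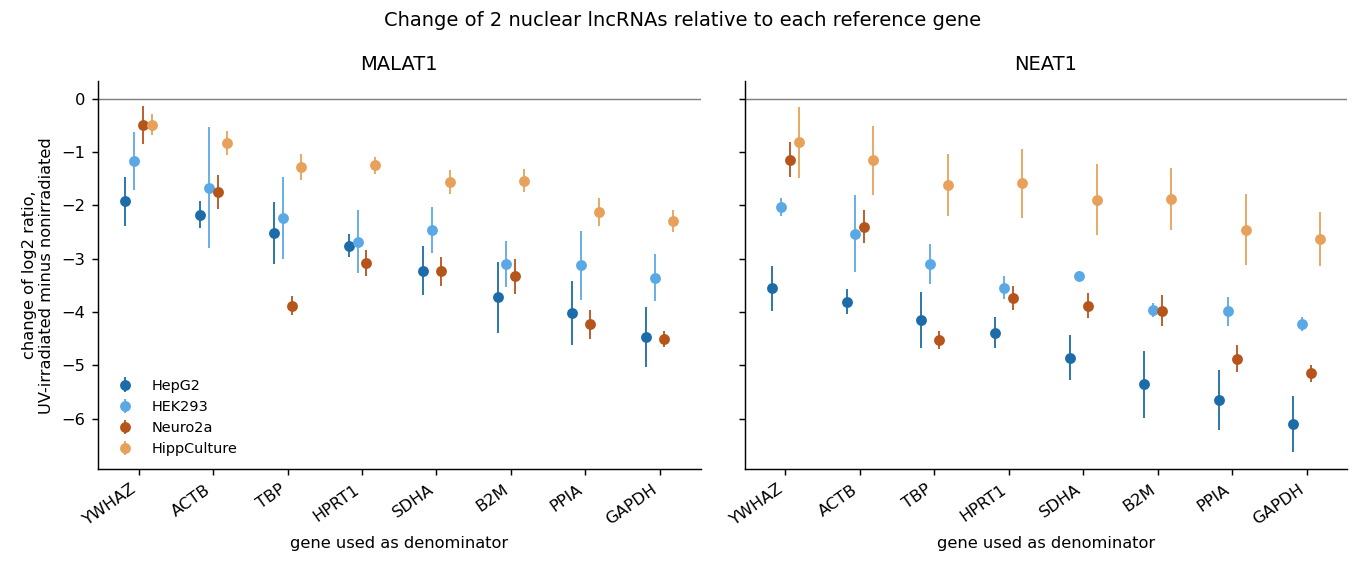
Change of the log2 ratio of MALAT1 and NEAT1 to each reference gene upon UV irradiation (mean difference of 3 and 3 samples with SE), by cell type. The fall of MALAT1 in Neuro2a ranges from 0.50 over YWHAZ to 4.51 over GAPDH.

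The spread between replicates and the spread with irradiation included were compared. For each gene the SD of its log2 ratio to each of the other 6 was averaged. Over nonirradiated samples alone Ywhaz had the lowest average SD in Neuro2a, 0.075, and YWHAZ also the lowest in HepG2, 0.321. Over all 6 samples of Neuro2a, Ywhaz had the highest, 1.52. In HippCulture Ppia was lowest without irradiation (0.097) and highest over all 6 samples, whereas in HEK293 HPRT1 was lowest on both (0.222 and 0.455) and ACTB high on both (0.694 and 0.832). By the same measure over all 6 samples the lowest was SDHA in HepG2 (0.517) and Neuro2a (0.593), HPRT1 in HEK293 (0.455) and Tbp in HippCulture (0.298). The highest was PPIA in HepG2 (0.772) and HippCulture (0.542) and YWHAZ in HEK293 (0.850). These are descriptions of 3 or 6 samples, and neighbouring values such as Tbp and Hprt in HippCulture (0.298 and 0.302) were not tested against each other.

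Other genes of the same pathways were examined to place each reference gene. The counts below are to be read against all genes, of which 24.2% to 38.1% increased and 25.9% to 40.7% decreased under TMM in a cell type, and no list was tested against other genes. With library size alone more genes decreased than increased in all cell types, except among the succinate dehydrogenase and further reference genes. Of 6 further 14-3-3 genes tested in each cell type, 1 to 4 increased and 1 or 2 decreased (0 or 1 and 2 to 5 with library size alone). YWHAG, the brain-enriched γ isoform, fell with YWHAZ in all 4 cell types (−0.63, −0.98, −1.06 and −0.71 in HepG2, HEK293, Neuro2a and HippCulture, all called), whereas SFN, the epithelial σ isoform, had 1.80, 1.58, −0.79 and 1.34, with Neuro2a not called (adjusted p = 0.42). Among actins and actin-binding proteins 10 to 14 of 19 to 21 genes increased and 2 to 5 decreased under TMM, against 2 to 4 and 7 to 15 with library size alone. TMSB10, thymosin β10, which sequesters actin monomers, rose by 2.21, 1.73, 2.08 and 1.68, and ACTR2, a subunit of the Arp2/3 complex, fell by 1.15, 1.19, 1.59 and 0.78.

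Cyclophilins were mixed, with 6 to 8 of 13 to 15 genes increased and 2 to 4 decreased under TMM, against 1 to 3 and 5 to 10 with library size alone. PPIB, the cyclophilin of the endoplasmic reticulum, rose by 1.86, 1.46, 1.65 and 1.06, close to PPIA, while NKTR, a large cyclophilin-related protein, fell by 1.96, 1.68, 1.84 and 1.10. Of the 7 other subunit and assembly factor genes of succinate dehydrogenase, 6, 6, 7 and 5 increased, beside 38.1%, 24.2%, 28.9% and 26.1% of all genes, and 0 decreased under TMM, with a median of 1.43, 1.02, 0.81 and 0.55. SDHAF1, an assembly factor, was the highest (1.98, 1.59, 1.89 and 1.30) and SDHC, a membrane anchor, the lowest (−0.50 and −0.24, not called, in the human lines and 0.54 and 0.25, called, in the mouse cells). On the scale of library size 2 of these 7 increased in each cell type and 1 to 3 decreased.

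In the purine salvage list 5 to 8 of 11 or 12 genes increased and 2 or 3 decreased (1 or 2 and 5 to 8 with library size alone), from APRT, which salvages adenine (2.30, 1.91, 1.67 and 0.99), to DCK, deoxycytidine kinase (−0.88, −0.88, −1.97 and −0.75). Of 14 TFIID genes 6 to 8 increased and 2 to 5 decreased (0 or 1 and 6 to 12 with library size alone), with TAF10 at the top (1.57, 1.06, 1.44 and 0.91) and TAF1, the largest subunit, at the bottom (−1.36, −0.67, −0.96 and −0.37), all called. In the MHC class I assembly list 4 to 8 of 11 or 12 increased and 1 to 4 decreased (0 to 4 and 2 to 9 with library size alone). CANX, the chaperone calnexin, was lowest (−0.51, −0.86, −1.41 and −0.69, all called) and TAP1, a subunit of the peptide transporter, highest (1.14 and 0.80, called, in the human lines and 0.33 and 0.31, not called, in the mouse cells).

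**Figure D5:**
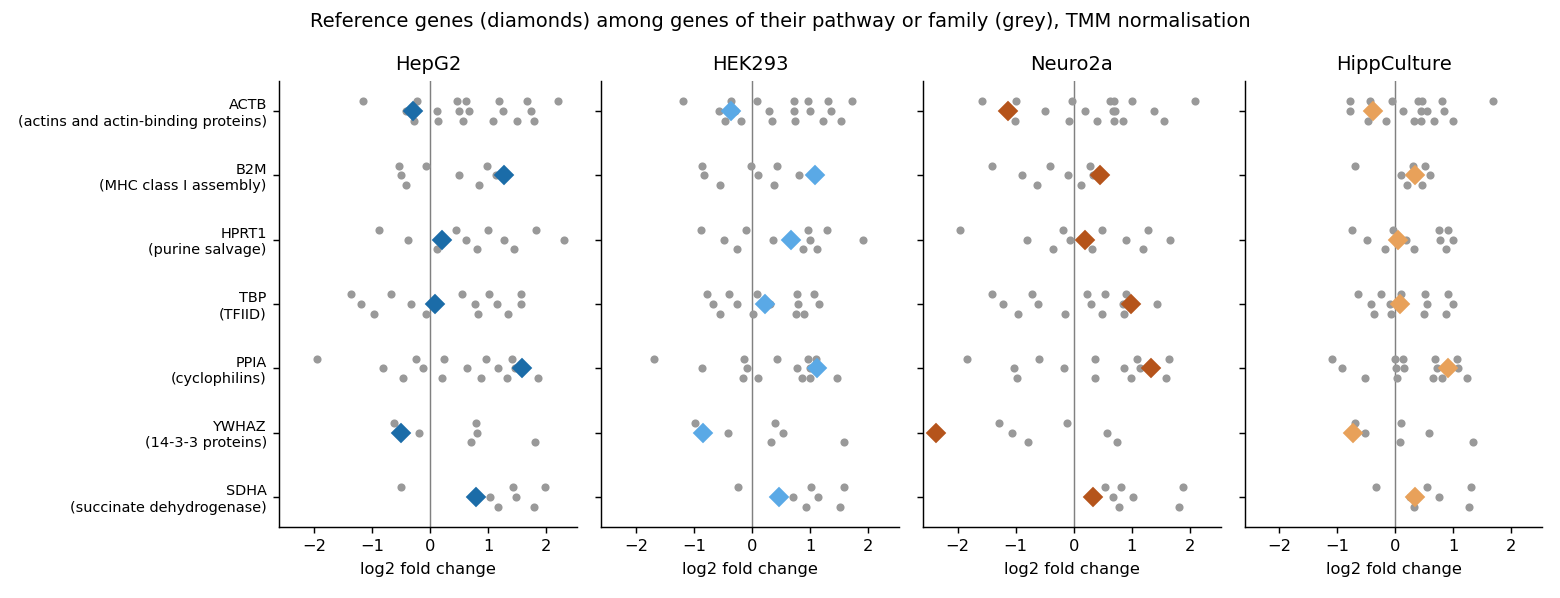
Log2 fold change upon UV irradiation (TMM normalisation) of each reference gene (diamonds) and of the other tested genes of its pathway or family (grey points), 1 panel per cell type. YWHAZ lies at or near the low end of the 14-3-3 genes in every panel and PPIA near the high end of the cyclophilins.

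Of 16 further genes used as references (14 in the mouse files), 9 to 12 increased and 3 or 4 decreased, and 1 or 2 did not pass the test (all genes: 24.2% to 38.1% increased, 25.9% to 40.7% decreased), with medians of 1.02, 0.76, 0.84 and 0.68. The ribosomal protein gene RPS18 had the highest mean over the 4 cell types (2.59, 2.09, 2.26 and 1.56) and IPO8, an importin, the lowest (−1.02, −1.01, −1.57 and −0.60), all called. On the scale of library size 4 or 5 of these genes increased and 3 to 8 decreased.

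Genes with the pattern most like each reference gene were sought among 9582 genes tested in all 4 cell types, by the Euclidean distance between 4 log2 fold changes. OAZ2 (distance 0.036) and CAMSAP3 (0.054) were nearest to SDHA, THYN1 (0.080) and TUFM (0.089) to PPIA, and SNX2 (0.094) and MAP1S (0.126) to B2M. SEC24D (0.117) and UGGT2 (0.127) were nearest to ACTB, and CENPU (0.141) and CWF19L1 (0.206) to HPRT1. TBP and YWHAZ had no such close neighbours, with PIH1D2 (0.270) and ERICH1 (0.309) for TBP and NAA50 (0.328) and NLK (0.362) for YWHAZ.

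The transcripts of the 7 genes differed in length and base composition in ways that the choice of genes did not use. The representative YWHAZ transcript was the longest of the human set, 5011 bases with a 3′ UTR of 4170 bases, and 32.5% of its bases were U. The other human 3′ UTRs had 553 (B2M) to 1695 bases (PPIA), against a median of 1265 over the protein-coding genes tested in HepG2. B2M had 32.7% U in 943 bases. ACTB had 23.3% U in 1812 bases, PPIA 29.8% in 2237, SDHA 24.0% in 2693, HPRT1 31.3% in 1395 and TBP 26.4% in 1857 bases, against medians of 24.9% U and 3267 bases over the protein-coding genes tested in HepG2. In mouse, Sdha was the longest of the set, with 2900 bases and 26.3% U. Ywhaz had 2122 bases and 27.4% U and Ppia 1170 bases and 22.7% U. Actb had 1920 bases and 26.6% U, Tbp 1891 and 27.8%, Hprt 1289 and 31.65%, and B2m 860 and 28.95%. The medians over the protein-coding genes tested were 2810 bases and 23.8% U in Neuro2a and 2906 bases and 24.0% U in HippCulture. Over mRNAs the study reports a mild correlation between 3′ UTR length and the decrease in reads, in all its cell types. A relation of length or composition to the changes of the 7 genes was not tested here.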

How the data were processed

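RNA was purified with TRIzol, depleted of ribosomal RNA and sequenced from TruSeq libraries, on a HiSeq4000 for HepG2 and on a HiSeq2500 for the other cells. Whether reads were stranded differs between the sources. The authors mapped reads with TopHat2 2.1.1 (hg38, mm10) and deposited raw counts per gene made with featureCounts 1.5.3 (HepG2) or 1.6.1 on exons of GENCODE 28 or M17, where reads on several genes were counted for each and, per the file headers, no strand option was set. Symbols came from GENCODE 44 and M21.

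Genes with a mean of at least 0.5 CPM in nonirradiated samples were tested with edgeR 4.0.16 (R 4.3.3; quasi-likelihood test, TMM, Benjamini-Hochberg adjustment over all genes, threshold 0.05), and SE is the log2 fold change divided by the square root of F. DESeq2 1.42.0 served as an alternative. Ratios were compared by exact two-sided permutation (scipy 1.17.1). On simulated counts (200 changed genes, 14020 to 19238 genes, 16 fits, alternatives and interactions included) the tests recovered 16% to 63% of genes changed by 1 and 90% to 100% of those changed by 2 on the log2 scale. Of the calls, 1.3% to 11% were false. The simulation gave all genes a single dispersion and no shift in composition, unlike the data, so recovery in the real fits may differ. An uncalled change may still be missed. Samples of the same number deviated together in HEK293 (correlations of deviations 0.65, 0.37 and 0.46) and, less so, in Neuro2a (0.29, 0.10 and 0.15), which were therefore taken as pairs for the ratios. The tests of single genes and the interactions did not use this pairing unless a block is named. With the replicate number as a block, edgeR's test gave lower adjusted p in these lines, such as 4.0e-07 in place of 0.013 for SDHA in HEK293. In Neuro2a the value of replicate 2 (0.104) was close to that with irradiated replicate 3 (0.099). HepG2 and HippCulture, where not every correlation exceeded 0.1, were not taken as pairs.

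The genes, lists and comparisons were chosen with earlier results of these data known. The genes named beyond the 7 are GAPDH, MALAT1, NEAT1, the lowest and highest mean of each list, and the 2 nearest patterns. Pdcd2, the SDHA pseudogenes and the markers were added for the limits they set. A further marker list for Neuro2a is not reported here. The labels do not say whether replicates are separate cultures, while the study's legends call them biological triplicates. The p-values set each change against the spread between these samples.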

Additional observations from a re-analysis of the deposited data

Results flagged for a closer look

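The effect of UV irradiation on 4 reference genes differed between Neuro2a and HippCulture by the interaction test. As HippCulture minus Neuro2a on the log2 scale, the differences were 1.64 for Ywhaz (−2.37 in Neuro2a, −0.73 in HippCulture), 0.74 for Actb (−1.13 and −0.39), −0.91 for Tbp (0.99 and 0.08) and −0.42 for Ppia (1.33 and 0.91). Those of Ywhaz, Actb and Tbp passed the test whichever of the 12 samples was left out, and that of Ppia in 7 of 12 such fits. Its call was lost without Neuro2a nonirradiated replicate 3 (−0.36, adjusted p = 0.099) or UV-irradiated replicate 2 (−0.43, adjusted p = 0.056), and without HippCulture nonirradiated replicate 1 (−0.42, adjusted p = 0.060) or 3 (−0.39, adjusted p = 0.077) or UV-irradiated replicate 1 (−0.37, adjusted p = 0.076), in edgeR's test. Reads shared with Pdcd2 on the opposite strand enter the counts of Tbp in both cell types, and their part was not tested. Cell type and culture conditions cannot be told apart in this comparison.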

How the results depend on the processing

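The log2 fold change of PPIA was above 0 and that of YWHAZ below 0 in all 4 cell types under every alternative run. With library size alone, log2 fold changes turned negative for SDHA (−0.51, −0.30, −0.85 and −0.21), TBP (−1.23, −0.55, −0.21 and −0.48) and HPRT1 (−1.09, −0.10, −1.0023 and −0.50) in HepG2, HEK293, Neuro2a and HippCulture, and for B2M in HepG2 (−0.038), Neuro2a (−0.73) and HippCulture (−0.20). With library sizes that leave out the 10 most abundant genes, SDHA had −0.12, −0.064 and −0.30 in HepG2, HEK293 and Neuro2a, TBP −0.84, −0.31 and −0.021 in HepG2, HEK293 and HippCulture, HPRT1 −0.71, −0.45 and −0.0485 in HepG2, Neuro2a and HippCulture, and B2m −0.17 in Neuro2a. These 2 scalings called 2 and 3 of the 7 genes in HEK293 in place of 5. Among genes with at least 10 counts in every sample TBP had −0.19 and HPRT1 −0.078 in HepG2, and Tbp −0.014 and Hprt −0.043 in HippCulture, and the calls in Neuro2a of B2m (0.32, adjusted p = 0.071) and Sdha (0.20, adjusted p = 0.051) were lost. Library size alone turned the differences between HepG2 and HEK293 to 0.21 for SDHA, 0.074 for PPIA, 0.21 for YWHAZ and 0.37 for B2M, and those between Neuro2a and HippCulture to 0.53 for B2m, 0.22 for Ppia and 0.505 for Hprt. That of Sdha was −0.085 with DESeq2's size factors and −0.0853 with its test. The cause of these shifts was not tested.

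With the replicate number as a block, 20 pairs in HEK293 moved in 1 direction in place of 12 without overlap, by another measure, and the block changed no call of the 7 genes other than ACTB in HEK293. In HepG2 (correlations −0.01, 0.01 and −0.02) the numbers are shared without pairing the samples. In HippCulture the correlations were small but all positive (0.14, 0.07 and 0.06), so pairing there is undecided. Dividing by 1 transcript's length gave spans of 61.8, 51.3, 50.6 and 109, and leaving out a sample gave 34.1 to 45.1 in HepG2. Leaving out each sample in turn also changed the sign of small effects, which ranged from −0.086 to 0.11 for TBP and −0.033 to 0.67 for HPRT1 in HepG2, −0.013 to 0.43 for TBP and −0.94 to 0.27 for ACTB in HEK293, and −0.002 to 0.20 for Tbp and −0.0103 to 0.14 for Hprt in HippCulture. Named ratios were also recomputed without HepG2 nonirradiated replicate 1, without replicate 1 of both HEK293 groups and without HippCulture nonirradiated replicate 2. These libraries were chosen after seeing the data, and no named ratio whose groups did not overlap was reversed. By chi-square per degree of freedom over genes, nonirradiated HippCulture replicate 3 stood farther off (18.9 and 30.3, against 7.33 between replicates 1 and 2). Replicate 2 had the most Neat1 counts there, 275 against 103 and 75. With each sample left out in turn, differences between cell types ranged from −0.53 to 0.64 for ACTB and −0.20 to 0.089 for B2M. Those of B2m ranged from −0.27 to 0.11 and those of Sdha from −0.057 to 0.0605. The call of ACTB in HepG2, absent at first, was made under DESeq2's test (−0.36, adjusted p = 0.042), without a filter (−0.34, adjusted p = 0.017), with at least 10 counts (−0.57, adjusted p = 0.025) and without nonirradiated replicate 2 (−0.44, adjusted p = 0.030). With 76 to 90 counts per nonirradiated HippCulture sample, counting error limits B2m there.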
